A study of Mus musculus with 15 samples.

Results

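The genes described here run the G1 phase of the cell cycle: the D-type cyclins Ccnd1, Ccnd2 and Ccnd3, the E-type cyclins Ccne1 and Ccne2, the cyclin-dependent kinases Cdk2, Cdk4 and Cdk6, the pocket protein Rb1 and the transcription factor E2f1. They were chosen by name, and all 10 had a row among the 12089 transcripts of the expression table. The samples were mouse dental mesenchymal cells (mDMCs) of ICR mouse embryos, separated with trypsin from the dental mesenchyme of mandibular first molar germs at embryonic day 14.5, after the epithelium had been removed with dispase. Freshly isolated mDMCs (0 h, n = 3) were compared with mDMCs grown in FBS-supplemented medium for 12 h (n = 2), 24 h (n = 3), 36 h (n = 3) and 48 h (n = 3), and 1 library came from undissociated dental mesenchymal tissue. No allele or drug distinguished the groups, which differed in dissociation and in time in culture. The labels do not say whether the libraries of a time point came from separate litters or cultures, so the p-values measure the spread between these libraries, which may be technical.

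As background, mitogens induce D-type cyclins, which bind Cdk4 or Cdk6 and begin the phosphorylation of Rb1. Rb1 holds E2F factors inactive, and its phosphorylation frees them to switch on genes for S phase, Ccne1 and Ccne2 among them. The E-type cyclins then bind Cdk2, which completes the phosphorylation of Rb1 and commits the cell to DNA replication. Inhibitors of the Cdkn1 and Cdkn2 families hold these kinases back.

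The deposited values were whole-number expression scores without a stated unit. All 15 libraries shared a median score of 721 and a largest score of 127101, so the scores had been brought to a common distribution, the depth was unknown, and a change in the total RNA of a cell could not be seen. Of 10 dental mesenchyme markers all had a row, and their summed score was between 253124 and 276393 at 0 h and between 201384 and 261958 at 48 h. Within that sum 6 of the 10 markers were lower at 48 h, 1 higher and 3 not called by limma, with a median log2 change of −0.68, beside 34.0% of all transcripts lower and 37.1% higher. Pdgfra went from 16448 in all 3 libraries of 0 h to between 2485 and 2608 at 48 h and Pax9 from between 3850 and 5959 to between 619 and 1056, while Vim, common to mesenchymal cells, rose from between 28694 and 36335 to 70528. These marker changes fell in the same interval as those described next, and their part in them was not tested. Red cell markers (5 of 6 listed had a row) summed to between 79096 and 131256 at 0 h and to 129075 in the tissue, but to at most 702 in any culture, and Hbb-bt was at 0 in 1 library of 48 h. Endothelial markers (6 of 6) fell from between 7975 and 9452 to between 487 and 851 at 48 h, where Tie1 was at 0 in 1 library. Epithelial markers (7 of 8) summed to 13358 in the 0 h replicate 1 and to 1450 and 1771 in the others of 0 h, with 357 to 1205 at 48 h. Macrophage markers (5 with a row) summed to between 908 and 1270 at 0 h and between 452 and 781 at 48 h. Within that sum Lyz2 was called higher at 12 h (log2 change 1.71, limma adjusted p = 0.011), while 3 of the 5 were lower and 1 not called. Over all transcripts 29.9% were higher and 28.3% lower at 12 h. Red cell and endothelial markers were thus low in all cultures, during the same interval as the changes described next, and their part in these changes was not tested. In bulk libraries, fewer cells of a type and less RNA per cell cannot be told apart.

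Over the time course the D-type cyclins moved in opposite directions. Ccnd1 rose 2.42-fold from 0 h to 48 h, while Ccnd2 and Ccnd3 fell to 0.396 and 0.485 of their 0 h level. Rb1 rose 2.96-fold, and E2f1, Cdk2 and Ccne1 fell to 0.612, 0.629 and 0.544 of the 0 h level. Cdk4 and Cdk6 did not pass the test at any time. Values were analysed as log2(score + 1) with limma over 12079 transcripts, and a gene was called at a Benjamini-Hochberg adjusted p below 0.05.

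**Figure D1:**
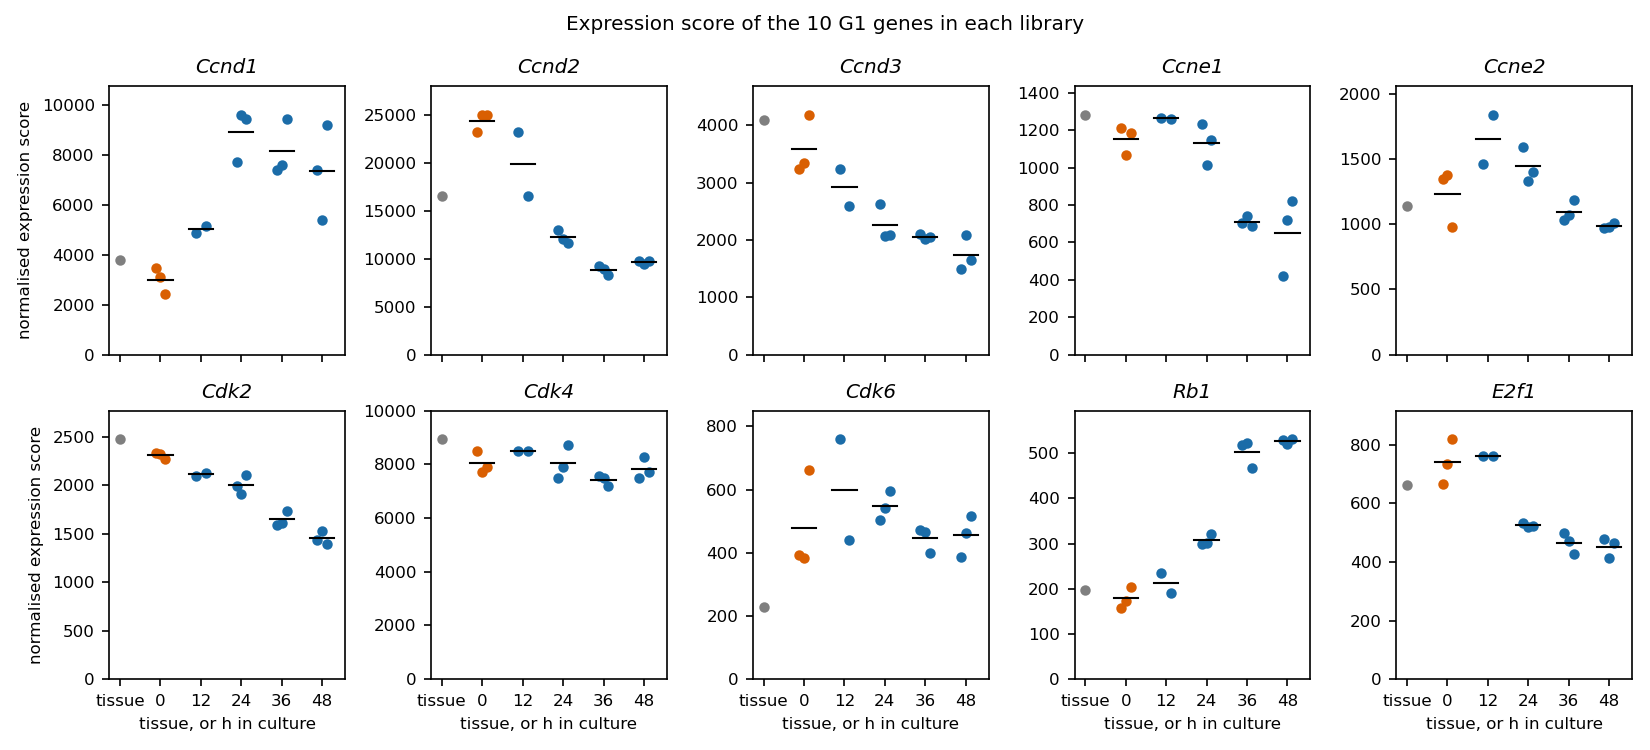
Normalised expression score (vertical axis, from 0) of each of the 10 genes in every library, with tissue in grey, 0 h in orange and cultured mDMCs in blue, and a bar at the mean of each group with replicates. Ccnd1 lies above all 0 h libraries in all 11 cultured libraries, Cdk2 lies below them in all 11, and the libraries of Cdk4 stay between 7215 and 8938.

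Against 0 h, 3 of the 10 genes were called at 12 h (2 higher and 1 lower), where 58.2% of all transcripts tested were called, 29.9% higher and 28.3% lower. At 24 h 6 genes were called (2 higher and 4 lower), against 66.9% of all transcripts, 35.0% higher and 31.8% lower. At 36 h there were 7 (2 higher and 5 lower), against 70.0%, of which 36.0% were higher and 34.0% lower. At 48 h 8 genes were called, 2 higher and 6 lower, against 71.2% of all transcripts, of which 37.1% were higher and 34.0% lower. The share of called genes was thus not far from that of the whole table at 24, 36 and 48 h. The median log2 change of the 10 genes was 0.11, −0.02, −0.32 and −0.49 at 12, 24, 36 and 48 h, beside medians between 0.02 and 0.03 over all transcripts. The libraries of 0 h and of the later time did not overlap for 4, 6, 8 and 7 genes in that order of times, beside 66.3%, 68.9%, 74.8% and 71.9% of all transcripts. A change of over 2-fold with an unadjusted p below 0.05 was found for 0, 1, 3 and 4 genes, beside 24.3%, 28.0%, 31.1% and 32.1%. These comparisons share the 0 h libraries.

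Between neighbouring times, 4 genes were called from 12 h to 24 h (Ccnd1 and Rb1 higher, Ccnd2 and E2f1 lower), beside 8.25% of all transcripts, 4.59% higher and 3.67% lower. That count was 1 with only these times in the fit and 2 without the 24 h replicate 2 or the 24 h replicate 3. From 24 h to 36 h 5 genes were called (Rb1 higher, Ccnd2, Ccne1, Ccne2 and Cdk2 lower), beside 19.7%, with 9.64% lower. With each library of these times left out in turn, 2 to 4 were called. From 36 h to 48 h limma called 0 of the 10 genes, beside 0 transcripts higher and 0.0248% lower in the whole table. Cdk2 alone had an unadjusted p below 0.05 over that step (log2 change −0.18, limma adjusted p = 0.26), as had 13.4% of all transcripts. In these steps the groups did not overlap for 5, 7 and 3 genes, beside 39.2%, 47.3% and 25.0% of all transcripts. None of the 10 genes moved by over 2-fold with an unadjusted p below 0.05 within a step, beside 3.68%, 4.17% and 1.36%.

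**Figure D2:**
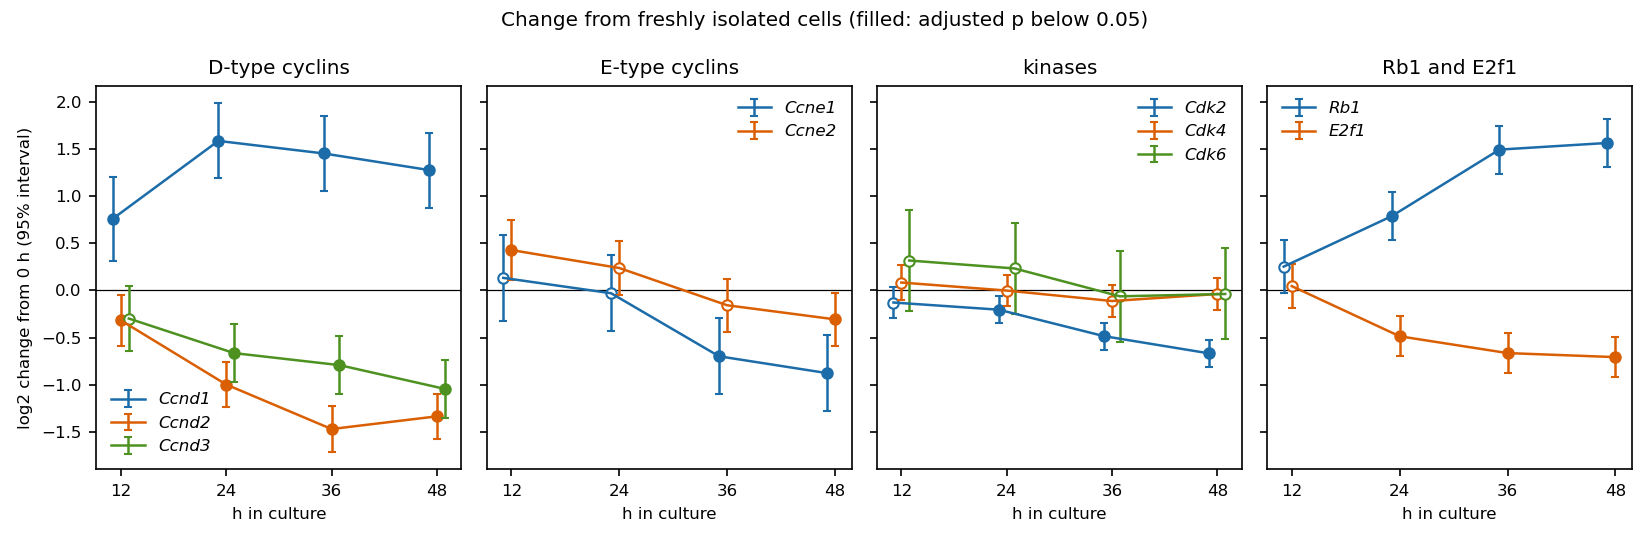
Log2 change from 0 h (vertical axis) at 12, 24, 36 and 48 h of culture (horizontal axis) for the D-type cyclins, the E-type cyclins, the kinases, and Rb1 with E2f1. Points are limma estimates from the 14 mDMC libraries, bars are 95% intervals, and filled points have an adjusted p below 0.05. Ccnd1 (1.28) and Rb1 (1.56) end above 0, and Ccnd2 (−1.34) and Ccnd3 (−1.04) end below it.

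Ccnd1 encodes the D-type cyclin best known as a sensor of mitogens and adhesion. Its transcript in the table, ENSMUST00000093962, lies on the minus strand of chromosome 7 of GRCm38 from 144929931 to 144939869 in 5 exons. The scores at 0 h were 3452, 3087 and 2410. They were 4858 and 5154 at 12 h, 7714, 9591 and 9403 at 24 h, 7398, 7584 and 9403 at 36 h, then 7398, 5380 and 9189 at 48 h. All 11 cultured libraries were above all 0 h libraries, as was the case for 24.6% of all transcripts tested, and the tissue, with 3800, was also above them. The log2 change from 0 h was 0.76 at 12 h (standard error, SE, 0.21, adjusted p = 0.0065) and reached 1.59 at 24 h (SE 0.18, adjusted p = 6.8e-06). It was 1.45 at 36 h and 1.28 at 48 h (adjusted p = 3.9e-05), and the means of 24, 36 and 48 h did not differ beyond their spread. The rise from 12 h to 24 h (log2 change 0.82, adjusted p = 0.028) was no longer called without the 12 h replicate 1 (adjusted p = 0.198), the 12 h replicate 2 (0.0626), the 24 h replicate 2 (0.107) or the 24 h replicate 3 (0.0634). Its exons share 1100 bases with LTO1 on the opposite strand, whose own row went from 529 ± 42 at 0 h to 641 ± 101 at 48 h (SD, n = 3 each, adjusted p = 0.0818). Whether counting used the strand is not given in the sources used here.

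Ccnd2, a D-type cyclin with a partly separate tissue range, went the other way. Its transcript, ENSMUST00000000188, has 5 exons on the minus strand of chromosome 6 from 127125162 to 127151060. The scores at 0 h were 23247, 25068 and 25068, and at 12 h they were 23247 and 16542. They were 12983, 12096 and 11655 at 24 h, 9217, 8961 and 8305 at 36 h, then 9812, 9424 and 9812 at 48 h. In 10 of 11 cultured libraries Ccnd2 was below all 0 h libraries, and the exception was 1 library of 12 h that held the lowest 0 h score. The log2 change was −0.32 at 12 h (adjusted p = 0.042), −0.999 at 24 h (adjusted p = 4.7e-06), −1.47 at 36 h (adjusted p = 1.2e-07) and −1.34 at 48 h (SE 0.11, adjusted p = 2.7e-07). The call at 12 h was lost without the 0 h replicate 2 (adjusted p = 0.0925), the 0 h replicate 3 (0.0789) or the 12 h replicate 2, where the log2 change was −0.07 (0.611), and also with trimmed-mean scaling (0.062) or with 0 h and 12 h alone in the fit (0.145). Levels fell at each step to 36 h, with log2 changes of −0.68 from 12 h to 24 h (adjusted p = 0.0065, and 0.0829 without the 12 h replicate 1) and −0.47 from 24 h to 36 h (adjusted p = 0.013). The means of 36 h and 48 h, 8828 ± 470 and 9683 ± 224 (SD, n = 3 each), were not told apart by the test (adjusted p = 0.662). The tissue, with 16542, was below all 0 h libraries.

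Ccnd3, the D-type cyclin common in blood cells and muscle, is listed by ENSMUST00000182129, with 6 exons on the plus strand of chromosome 17 from 47505051 to 47598070. The scores at 0 h were 3243, 3339 and 4183, and at 12 h 3243 and 2590. They were 2626, 2066 and 2092 at 24 h, 2105, 2010 and 2058 at 36 h, then 1489, 2092 and 1654 at 48 h. All 9 libraries from 24 h on were below all 0 h libraries. The log2 change was −0.30 at 12 h (adjusted p = 0.129), −0.67 at 24 h (adjusted p = 0.0012), −0.79 at 36 h (adjusted p = 2.8e-04) and −1.04 at 48 h (SE 0.14, adjusted p = 2.6e-05). No step between neighbouring times was called, so the fall was seen only against 0 h. The tissue, with 4086, was within the range of the 0 h libraries. Red cell markers were already at a sum of at most 413 at 12 h, where Ccnd3 was not called, and their part in its later fall was not tested. A processed pseudogene named Ccnd3-ps is annotated whose share of the reads was not tested.

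Within a library, the ratio of the Ccnd1 score to the Ccnd2 score averaged 0.123 ± 0.026 (SD, n = 3) at 0 h, against 0.260 ± 0.073 (SD, n = 2) at 12 h. At 24, 36 and 48 h it was 0.731 ± 0.119, 0.927 ± 0.179 and 0.754 ± 0.183 (SD, n = 3 each). The highest ratio at 0 h, 0.148, was below the lowest ratio in culture, 0.209, and the tissue had 0.230. The ratio of Ccnd1 to Ccnd3 went from 0.855 ± 0.251 at 0 h to 4.37 ± 1.58 at 48 h (SD, n = 3 each), and it was 0.930 in the tissue. Whether the scores were corrected for transcript length is not given in the sources used here, so the change of these ratios with time can be read but not the relative amount of the cyclins. The ratio of Ccne1 to Ccne2 averaged 0.961 ± 0.222 at 0 h, 0.651 ± 0.064 at 36 h, then 0.659 ± 0.202 at 48 h (SD, n = 3 each). Its libraries of 0 h and 24 h all lay above those of 36 h (0.577 to 0.692), while those of 0 h overlapped with 12, 24 and 48 h. The ratio of Cdk4 to Cdk6 was 17.9 ± 5.2 at 0 h against 17.4 ± 2.3 at 48 h (SD, n = 3 each), and its 0 h libraries overlapped with each later time. In the tissue the ratio of Cdk4 to Cdk6 was 39.4, above every library of mDMCs.

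**Figure D3:**
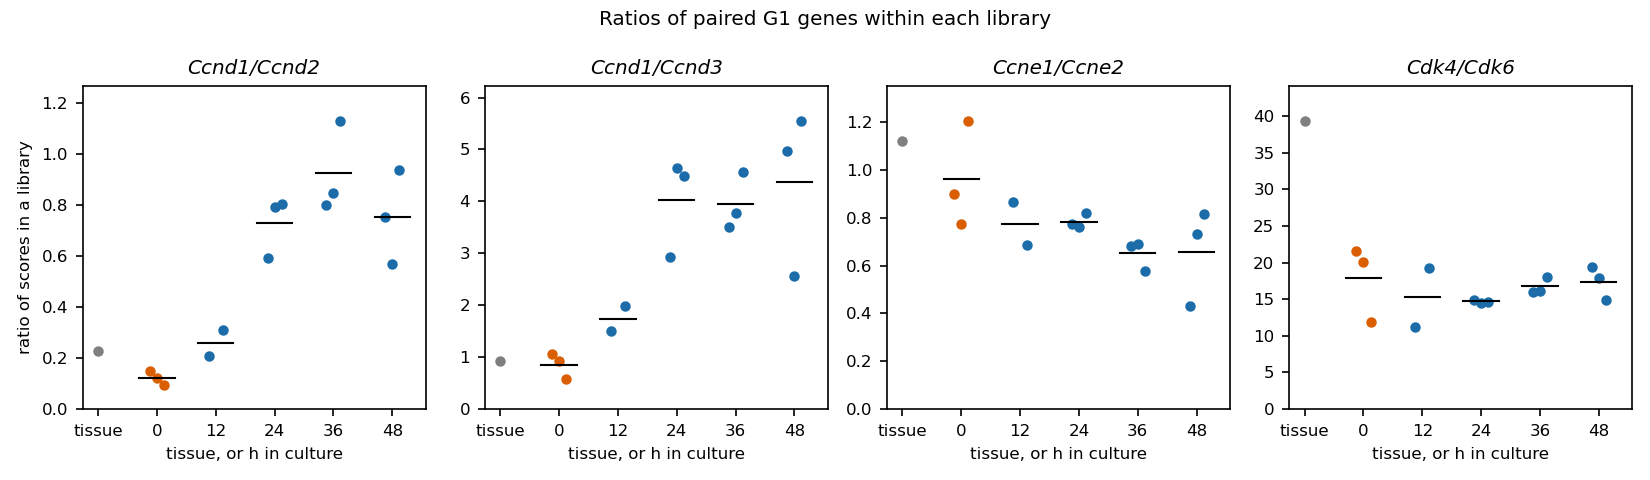
Ratio of the scores of paired genes within each library (vertical axis, from 0) for tissue (grey), 0 h (orange) and cultured mDMCs (blue), with a bar at the mean of each group with replicates. For Ccnd1/Ccnd2 the 3 libraries at 0 h lie between 0.096 and 0.148 and the 11 cultured libraries between 0.209 and 1.13, while for Cdk4/Cdk6 the libraries of 0 h overlap with those of each later time.

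The E-type cyclins, the partners of Cdk2, both had their highest mean of the time course at 12 h and means below that of 0 h at 36 h and 48 h. Ccne1 was called lower than at 0 h at 36 h and 48 h, while the calls of Ccne2 depended on single libraries. Ccne1 is listed by ENSMUST00000108023, with 12 exons on the minus strand of chromosome 7 from 38097984 to 38107534. The Ccne1 scores were 1212, 1066 and 1185 at 0 h, 1268 and 1260 at 12 h, then 1233, 1015 and 1149 at 24 h. They dropped to 704, 740 and 686 at 36 h and 418, 718 and 821 at 48 h, and all 6 of these libraries were below all libraries of 0, 12 and 24 h. The log2 change from 0 h was 0.13 at 12 h (adjusted p = 0.612) and −0.03 at 24 h (adjusted p = 0.896), with 95% intervals from −0.32 to 0.59 and from −0.44 to 0.38. It was −0.70 at 36 h (adjusted p = 0.0048) and −0.88 at 48 h (SE 0.19, adjusted p = 9.8e-04). The step from 24 h to 36 h was −0.67 (adjusted p = 0.026). That call was lost without the 24 h replicate 1 (adjusted p = 0.065), the 24 h replicate 3 (0.0797), the 36 h replicate 1 (0.0775), the 36 h replicate 2 (0.0654) or the 36 h replicate 3 (0.0696). The tissue had 1283.

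Ccne2, listed by the processed transcript ENSMUST00000145430 (5 exons, plus strand of chromosome 4 from 11191351 to 11193961), had scores of 1346, 1375 and 982 at 0 h and 1466 and 1840 at 12 h. The scores were 1595, 1335 and 1400 at 24 h, 1030, 1070 and 1188 at 36 h, then 970, 982 and 1007 at 48 h, and the tissue had 1142. At 12 h Ccne2 was higher than at 0 h in both libraries, with a log2 change of 0.43 (adjusted p = 0.023). At 48 h it was lower by the same test, with a log2 change of −0.31 and an adjusted p of 0.0493, close to the threshold. The step from 24 h to 36 h had a log2 change of −0.40 and an adjusted p of 0.0498. The identifier is a non-coding transcript of 418 bases, and whether its row stands for the gene as a whole is not stated in the files, which also limits the ratio of Ccne1 to Ccne2. None of these calls was stable: over the fits that left out 1 library the adjusted p ranged up to 0.224 at 12 h (without the 12 h replicate 2, and 0.0703 without the 0 h replicate 3). It ranged up to 0.186 at 48 h (without the 0 h replicate 2), where the call was also lost without the 0 h replicate 1 (0.161) or without the 48 h replicate 1 (0.0998), replicate 2 (0.0957) or replicate 3 (0.079), and was kept without the 0 h replicate 3 (0.0025). For the step from 24 h to 36 h it lay between 0.06 and 0.156, so that the call was lost in each of these 6 fits. Without the 0 h replicate 3, which held the lowest score of that time, Ccne2 was called lower at 36 h too (log2 change −0.31, adjusted p = 0.023, against −0.16 and 0.295 with all libraries).

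The kinases behaved differently from each other. Cdk2, the partner of the E-type cyclins, is listed by ENSMUST00000026416, with 8 exons on the minus strand of chromosome 10 from 128697944 to 128705030. Its scores were 2338, 2320 and 2269 at 0 h, 2092 and 2132 at 12 h, then 1998, 1912 and 2105 at 24 h. They were 1595, 1615 and 1740 at 36 h and 1434, 1532 and 1394 at 48 h, and the tissue had 2475. All 11 cultured libraries were below all 0 h libraries, as was the case for 22.6% of all transcripts tested. The log2 change from 0 h was −0.13 at 12 h (adjusted p = 0.157), −0.20 at 24 h (adjusted p = 0.016, and 0.0722 without the 24 h replicate 2), −0.49 at 36 h (adjusted p = 2.7e-05) and −0.67 at 48 h (SE 0.07, adjusted p = 1.4e-06). From 24 h to 36 h the log2 change was −0.28 (adjusted p = 0.013), and this call was lost without the 24 h replicate 3 (0.0598), the 36 h replicate 1 (0.0618) or the 36 h replicate 2 (0.0583). The replicate spread was small, with an SD of 35.8 on a mean of 2309 at 0 h.

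Cdk4, a kinase of the D-type cyclins, is listed by ENSMUST00000006911, with 8 exons on the plus strand of chromosome 10 from 127063534 to 127067920. The scores were 8514, 7714 and 7897 at 0 h, 8514 in both libraries of 12 h, 7499, 7897 and 8729 at 24 h, 7584, 7499 and 7215 at 36 h, then 7499, 8281 and 7714 at 48 h. The tissue, with 8938, had the highest score of all libraries. The log2 change at 48 h was −0.04 with a 95% interval from −0.21 to 0.13 (adjusted p = 0.671), and at 36 h, where the 3 libraries were below those of 0 h, it was −0.11 (interval −0.28 to 0.05, adjusted p = 0.208). A change of more than 0.3 on the log2 scale in either direction is outside the intervals at 12, 24, 36 and 48 h. Exactly equal scores, such as 8514 in both libraries of 12 h, recur in this table, in which all libraries share one distribution, so the replicate spread may be understated. Cdk4 shares 641 exon bases with Tspan31 on the opposite strand, whose own row rose by 0.39 on the log2 scale to 48 h (adjusted p = 3.2e-04).

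Cdk6, the other kinase of the D-type cyclins, is listed by ENSMUST00000042410, with 7 exons on the plus strand of chromosome 5 from 3344312 to 3522225, and its scores were 394, 384 and 661 at 0 h, 759 and 441 at 12 h, 503, 543 and 595 at 24 h, 473, 465 and 399 at 36 h, then 387, 462 and 517 at 48 h. The libraries of 0 h and of each later time overlapped. The log2 change was 0.32 at 12 h (95% interval −0.22 to 0.86, adjusted p = 0.296), 0.23 at 24 h (−0.25 to 0.72, adjusted p = 0.372), −0.06 at 36 h (adjusted p = 0.814) and −0.04 at 48 h (−0.52 to 0.45, adjusted p = 0.888). The wide intervals follow the spread of the replicates: without the 0 h replicate 3, which held 661, Cdk6 was called higher at 12 h (log2 change 0.57, adjusted p = 0.04) and at 24 h (0.49, adjusted p = 0.047), and without the 12 h replicate 2 it was called higher at 12 h (0.71, adjusted p = 0.045). The tissue had 227, or 0.473 of the 0 h mean and below every library of mDMCs. The tissue value stands on a single library and was not tested. Gm17590 is annotated on the opposite strand over 110 bases of the Cdk6 exons.

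The promoters of Cdk2 and Cdk4 are shown because one of these kinases fell in culture and the other was not called at any time. The windows, from RefSeq for GRCm38.p6, run from 250 bases before to 50 bases after the start of the gene. They matched 6 of the 10 genes, Ccnd3, Ccne1, Cdk2, Cdk4, Cdk6 and E2f1, and Ccnd1, Ccnd2, Ccne2 and Rb1 were not matched. The E2F words searched on both strands were TTTCCCGC, TTTGGCGC, TTTCGCGC and TTTGCCGC, and the E-box word, bound by factors of the Myc family among others, was CACGTG. Capitals mark matches to these words.
Cdk2, chr10:128705002-128705301, minus strand: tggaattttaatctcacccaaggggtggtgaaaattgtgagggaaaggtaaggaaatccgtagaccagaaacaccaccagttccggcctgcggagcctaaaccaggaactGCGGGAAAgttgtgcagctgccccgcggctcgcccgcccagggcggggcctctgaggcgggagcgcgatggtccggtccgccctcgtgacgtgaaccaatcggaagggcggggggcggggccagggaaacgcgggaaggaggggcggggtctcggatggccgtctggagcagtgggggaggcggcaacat
Cdk4, chr10:127063285-127063584, plus strand: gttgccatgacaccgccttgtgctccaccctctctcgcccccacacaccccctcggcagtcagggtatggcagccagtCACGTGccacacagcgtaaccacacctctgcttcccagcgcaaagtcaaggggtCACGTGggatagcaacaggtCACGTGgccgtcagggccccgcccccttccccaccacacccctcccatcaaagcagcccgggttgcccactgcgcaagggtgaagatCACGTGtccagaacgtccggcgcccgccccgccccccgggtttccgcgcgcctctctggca

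The Cdk2 window held 1 E2F word, GCGGGAAA, the reverse complement of TTTCCCGC, beginning at base −140 from the RefSeq start. Such a word was found in 2.26% of 32817 promoter windows of the same length. The Cdk4 window held 4 E-box words, at −172, −118, −98 and −11, where 7.15% of windows held at least 1 and 0.0244% held at least 4. The Cdk6 window held 1 E-box word, and the windows of Ccnd3, Ccne1 and E2f1 held neither word. The RefSeq start lies 466 bases downstream of the start of the table's transcript for E2f1 and 419 bases upstream for Cdk6, so these windows may not be the ones in use, and for Cdk2 it lies 21 bases upstream. The words describe the sequence, and binding was not measured.

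Rb1, the pocket protein that restrains E2F, rose until 36 h. The scores were 158, 173 and 205 at 0 h, 236 and 190 at 12 h, 299, 302 and 321 at 24 h, 518, 522 and 468 at 36 h, then 530, 521 and 531 at 48 h, and the tissue had 197. The libraries of 24, 36 and 48 h were all above those of 0 h and 12 h, and those of 36 h and 48 h were all above those of 24 h. The log2 change from 0 h was 0.25 at 12 h (adjusted p = 0.116), 0.79 at 24 h (adjusted p = 6.1e-05), 1.49 at 36 h (adjusted p = 1.7e-07) and 1.56 at 48 h (SE 0.12, adjusted p = 1.1e-07). The 12 h value was called without the 0 h replicate 3 (0.36, adjusted p = 0.028) or the 12 h replicate 2 (0.41, adjusted p = 0.042). The step from 24 h to 36 h, 0.71, was called in every fit that left out 1 library of those times (adjusted p = 0.0023 with all). The step from 12 h to 24 h, 0.53 (adjusted p = 0.026), was lost without the 12 h replicate 1 (0.0503), the 12 h replicate 2 (0.128), the 24 h replicate 2 (0.0775) or the 24 h replicate 3 (0.0607).

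The row that stands for Rb1 carries a limit. Its identifier, ENSMUST00000163932, is a processed transcript of 2 exons and 411 bases on the minus strand of chromosome 14 from 73183673 to 73287707, and 383 of these bases overlap exons of Rcbtb2 on the opposite strand. The table holds nearly 1 row per gene, 11973 matched transcripts for 11960 genes, and among protein-coding genes the rows named by a transcript that is not coding had a median score of 706.5 (1083 rows) beside 781.3 for the rows named by a coding one (10528 rows). The identifier may therefore stand for the gene as a whole, but the files do not state it. Rcbtb2 itself moved the opposite way, from 2476 ± 437 at 0 h to 998 ± 33 at 48 h (SD, n = 3 each), a log2 change of −1.30 (adjusted p = 3.6e-07).

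E2f1, the activating E2F factor whose promoter is itself under E2F control, is listed by ENSMUST00000103145, with 7 exons on the minus strand of chromosome 2 from 154559407 to 154569892. The scores were 666, 735 and 819 at 0 h and 761 in both libraries of 12 h. They were 534, 520 and 524 at 24 h, 498, 473 and 426 at 36 h, then 479, 412 and 465 at 48 h, and the tissue had 663. All 9 libraries from 24 h on were below those of 0 h, the tissue and those of 12 h. The log2 change was 0.05 at 12 h (95% interval −0.19 to 0.28, adjusted p = 0.749), −0.49 at 24 h (adjusted p = 7.0e-04), −0.66 at 36 h (adjusted p = 5.0e-05) and −0.71 at 48 h (SE 0.10, adjusted p = 2.7e-05). The fall from 12 h to 24 h was −0.53 (adjusted p = 0.012, and 0.099 without the 12 h replicate 1), and the later steps were not called.

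Among the 10 genes, the time courses nearest to each other were those of Ccne2 and Cdk6, with a root mean square difference of 0.15 between their log2 changes at 12, 24, 36 and 48 h, then Cdk4 and Cdk6 (0.17) and Cdk2 and E2f1 (0.19). Ccnd1 and Ccnd2 were the farthest apart, with 2.41. Over all transcripts tested, the 3 nearest to Ccnd1 were Slc25a33 (0.11), Pdia5 (0.12) and Anln (0.12), and those near Rb1 included Mrpl45 (0.03) and Afg1l (0.05). Those nearest to Ccnd2 were Ttbk2 (0.08), Plekha5 (0.08) and Etv5 (0.09), to Ccnd3 Fgd4 (0.04), Obsl1 (0.04) and Zscan21 (0.05), and those near E2f1 included Raver1 (0.04) and Hykk (0.06). For Ccne1 they were Dxo (0.06), Arhgap32 (0.09) and Tdp1 (0.10), for Ccne2 Ttll4 (0.03), Sgk3 (0.04) and Dhx34 (0.05), and for Cdk2 Pnn (0.03), Fmr1 (0.04) and Senp6 (0.04). For the kinases that were not called they were Zbtb24 (0.02), Copb1 (0.03) and Zfyve16 (0.03) for Cdk4 and U2af1 (0.02), Cdc16 (0.03) and Srpk1 (0.03) for Cdk6. Each value compares 4 mean changes that share the 0 h libraries, and courses within 0.25 of a gene were common, from 73 transcripts for Ccnd1 to 1972 for Cdk4.

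The other pocket proteins and E2F-DP factors did not move as one group. Of 11 listed, all had a row, and at 48 h 2 were higher, 4 lower and 5 not called, with a median log2 change of −0.16, beside 37.1% of all transcripts higher and 34.0% lower. Rbl1 and Rbl2, the relatives of Rb1, were lower at 48 h than at 0 h, while Rb1 was higher. Rbl1 went from 1079, 1145 and 1096 at 0 h to 644, 613 and 527 at 48 h (log2 change −0.90, adjusted p = 6.1e-06). Rbl2 went from 480, 538 and 539 to 409, 377 and 330 (log2 change −0.48, adjusted p = 0.0036), after lower scores of 275 and 242 at 12 h and 246, 199 and 198 at 24 h. In the step from 24 h to 36 h, where Rb1 rose too, Rbl2 was called higher (log2 change 0.74, limma adjusted p = 0.0023). E2f7, an E2F that represses transcription, rose from 216, 222 and 269 at 0 h to 1327 and 794 at 12 h and was 533, 475 and 439 at 48 h (log2 change 1.03, adjusted p = 7.4e-05). E2f2, an activating E2F, fell from 320, 398 and 403 to 14, 6 and 15 (log2 change −4.97, adjusted p = 2.2e-08), and Tfdp2, a DNA-binding partner of E2F, fell by 1.24 on the log2 scale (adjusted p = 3.6e-07). The fall of E2f2 accompanied that of the red cell markers, from a sum of at least 79096 at 0 h to at most 151 at 48 h, and the part of the red cells in it was not tested.

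The kinase inhibitors did not move together, and each of the Cdkn1 and Cdkn2 families held genes that rose and genes that fell. Of 7 listed, 6 had a row, and at 48 h 2 were higher, 3 lower and 1 not called, with a median log2 change of −0.49. The share called was near that of all transcripts, 71.2%. Cdkn1a, the p53 target p21, had scores of 16, 17 and 39 at 0 h, 484 and 289 at 12 h, then 2351, 2460 and 2369 at 48 h (log2 change 6.70, adjusted p = 5.2e-10). Cdkn2b, an inhibitor of Cdk4 and Cdk6, had 8, 4 and 1 at 0 h and 218, 201 and 295 at 48 h (log2 change 5.72, adjusted p = 1.2e-07). Cdkn1b, the inhibitor p27, fell from 2280, 2535 and 2321 to 1112, 996 and 885 (log2 change −1.26, adjusted p = 7.8e-07), and most of the fall was present at 12 h (−1.22). Cdkn1c fell by 1.52 on the log2 scale (adjusted p = 0.0012) and Cdkn2c by 0.96 (adjusted p = 0.0011), and Cdkn2d had a log2 change of −0.01 (adjusted p = 0.938). The rise of Ccnd1 and that of Cdkn1a and Cdkn2b thus occurred in the same libraries, and whether in the same cells cannot be read from bulk RNA.

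The S phase genes known as E2F targets were mostly lower late in culture, as E2f1 and Ccne1 were. Of 24 listed, all had a row, and 9 were lower and 5 higher at 12 h, where 28.3% of all transcripts were lower. At 48 h 18 were lower, 4 higher and 2 not called, beside 34.0% of all transcripts lower, and the median log2 change was −0.63. From 24 h to 36 h 10 were lower and 0 higher by limma, beside 9.64% of all transcripts lower. The largest falls to 48 h were in Mcm6 (−1.41, adjusted p = 6.5e-07) and Mcm4 (−1.36, adjusted p = 5.1e-07), subunits of the replicative helicase, and Uhrf1 (−1.34, adjusted p = 3.5e-08), which maintains DNA methylation. Mcm6 went from 7872, 7568 and 6681 at 0 h to 2417, 3252 and 2708 at 48 h. Against the direction of the list, Orc1, a subunit of the origin recognition complex, rose from 93, 91 and 117 at 0 h to 426 and 421 at 12 h and was 311, 311 and 291 at 48 h (log2 change 1.60, adjusted p = 1.5e-07). The higher genes also included Rrm2 (0.90) and Rrm1 (0.65), the subunits of ribonucleotide reductase.

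Upstream of the D-type cyclins, genes of the mitogen response moved in both directions. Of 10 listed, all had a row, and at 48 h 6 were lower, 2 higher and 2 not called, with a median log2 change of −1.18. Over all transcripts 71.2% were called, 34.0% lower and 37.1% higher, with a median of 0.03. Fos, an AP-1 subunit, was 16498, 40642 and 127101 at 0 h, the last being the largest score the table holds, then 595, 943 and 1312 at 48 h (log2 change −5.61, adjusted p = 7.4e-07). The tissue, a single library that was not tested, held 15089, below the libraries of 0 h but close to the lowest of them. Fosl1, another AP-1 subunit, rose from 10, 11 and 18 to 701 and 416 at 12 h and 375, 335 and 651 at 48 h (log2 change 5.001, adjusted p = 1.8e-08). Mycn and Egr1 also fell, with log2 changes of −3.12 (adjusted p = 1.5e-07) and −2.80 (adjusted p = 3.5e-05). Myc was called higher than at 0 h at 12 h (log2 change 1.77, limma adjusted p = 0.0028) and 24 h (1.18, 0.013). At 48 h its log2 change was 0.28 and was not called (adjusted p = 0.507). The Myc scores at 0 h were 208, 263 and 752.

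**Figure D4:**
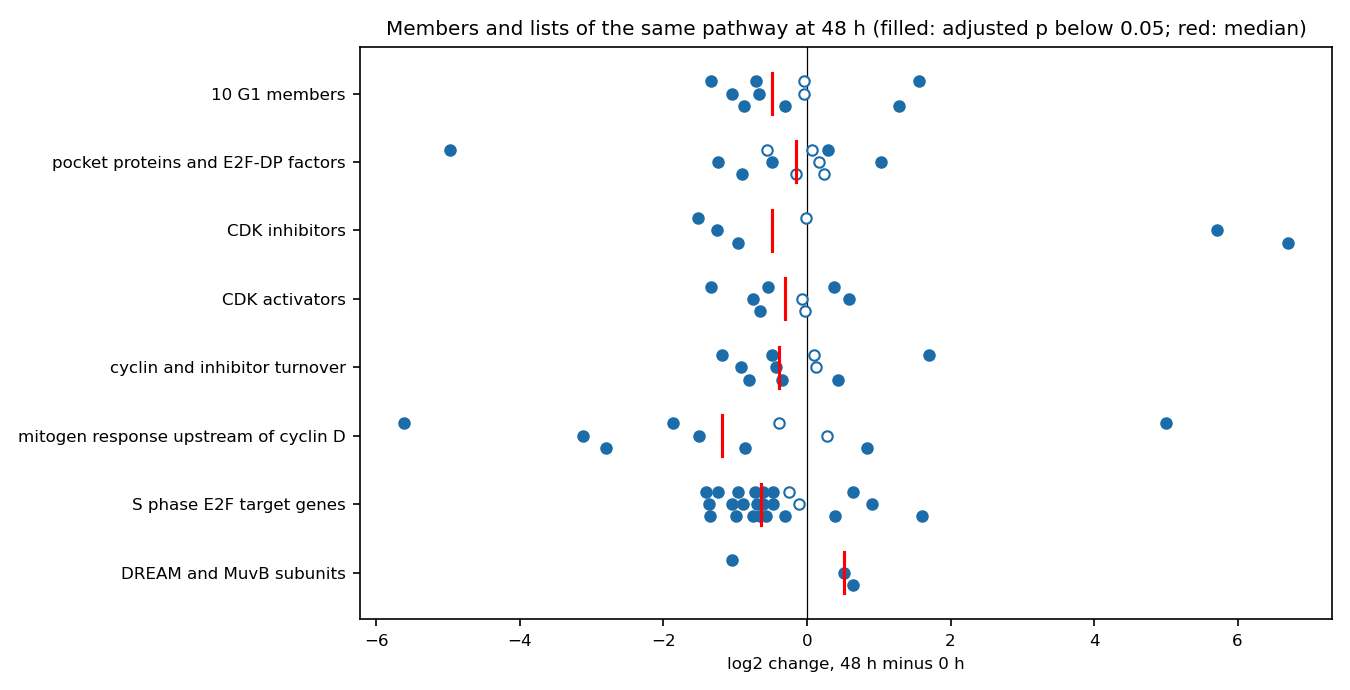
Log2 change from 0 h to 48 h (horizontal axis) of the 10 genes and of each gene with a row in 7 lists of the same pathway, with 1 point per gene, filled where the adjusted p is below 0.05, and a red bar at the median of the list. The S phase genes lie mostly below 0 (18 lower, 4 higher), while the kinase inhibitors range from −1.52 to 6.70.

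Undissociated tissue and freshly isolated mDMCs were compared for the 10 genes without a test, because the tissue had 1 library. Its score lay within the range of the 0 h libraries for Ccnd3, Ccne2 and Rb1, above it for Ccnd1, Ccne1, Cdk2 and Cdk4, and below it for Ccnd2, Cdk6 and E2f1. Relative to the 0 h mean the tissue had 1.27 for Ccnd1, 0.676 for Ccnd2 and 0.473 for Cdk6, and the other 7 genes were between 0.896 and 1.14.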

How the data were processed

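The authors trimmed the reads, mapped them to the mouse transcriptome (mm10, Ensembl) with bowtie and estimated expression with RSEM (version 1.1.21 in the submitters' processing notes). The authors deposited 1 table of scores, whole numbers on a common scale. Its label of CPM does not hold, since the library totals lie between 21357605 and 21365980. The normalization and the filter on low transcripts are not given in the sources used here. Depth and counting error are therefore unknown.

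Identifiers were matched to genes with GENCODE M21 (GRCm38, the build called mm10), and 11973 of 12089 matched. The 14 mDMC libraries entered limma 3.58.1 (R 4.3.3) as log2(score + 1), a mean was estimated for each of the 5 times, and eBayes moderated the variances along a trend. A transcript was kept if 2 or more libraries gave it 1 ppm of their total score, which left 12079. The tissue was left out of the fit. Tests were two-sided, with Benjamini-Hochberg adjustment over all transcripts tested. The fit was also tested on simulated data with known changes. The 10 genes and the lists were chosen with earlier results of these data known, and the promoters shown were picked after the values were seen. The alternatives were pseudocounts of 0.1 and 10, other filters, trimmed-mean scaling, no trend, the compared times alone, the replicate number as a block, each replicate left out, and an unadjusted p below 0.05 with a fold above 2. The study also used a p below 0.05 and a fold above 2, without saying whether its p was adjusted. Named were all 10 genes, their 3 nearest time courses, and per list up to 4 called genes with the largest change to 48 h, with all inhibitors and pocket proteins. A few genes that this rule or a count would name are not reported here. Further genes were named after their values were seen.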

Additional observations from a re-analysis of the deposited data

How the results depend on the processing

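Of 960 values of single genes under alternatives, 886 kept their direction and their side of the threshold, 49 lost the call, 6 gained one and 19 changed sign, and 0 of the 19 belonged to a called change. With only the compared times fitted, 1 gene was called at 12 h against 0 h and 1 in the step to 24 h, where fewer libraries entered the estimate of the spread. That fit ended the calls of Ccnd2 (adjusted p = 0.145) and Ccne2 (0.116) at 12 h, Cdk2 at 24 h (0.0503) and Ccne2 at 48 h (0.0879), and of Ccnd2 (0.0943), Rb1 (0.131) and E2f1 (0.0626) in the step to 24 h. Without the intensity trend Ccne2 lost its calls at 48 h (0.0619) and in the step to 36 h (0.0639), the latter also with a pseudocount of 0.1 (0.0503). By an unadjusted p below 0.05 and a fold above 2, the numbers were 0, 1, 3 and 4 genes at 12, 24, 36 and 48 h against 0 h, and 0 for each step between neighbouring times. With each replicate left out in turn, 0 to 4 genes were called in the step to 24 h, 2 to 4 in that to 36 h and 0 in that to 48 h. Leaving out a 12 h library leaves 1 there, assumed to vary like the other groups. The ranges over these fits crossed 0 for Ccne1 at 24 h (−0.094 to 0.046) and from 36 h to 48 h (−0.37 to 0.11), Ccnd1 from 36 h to 48 h (−0.36 to 0.029), E2f1 at 12 h (−0.028 to 0.12) and from 36 h to 48 h (−0.11 to 0.022), and Cdk4 at 24 h (−0.062 to 0.047) and 48 h (−0.079 to 0.0036). For Cdk6 they were −0.074 to 0.71 at 12 h, −0.20 to 0.19 at 36 h, −0.17 to 0.22 at 48 h, −0.48 to 0.31 from 12 h to 24 h and −0.072 to 0.14 from 36 h to 48 h. Trimmed-mean scaling did not move the median of all transcripts by over 0.1. The libraries already shared one distribution, so this cannot test the normalization.

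The time points share replicate numbers, but no label says that a number marks a common litter, batch or day. The 26 same-numbered pairs had correlations of deviations between −0.25 and 0.32, with 11 above 0.1. The 52 pairs with different numbers lay between −0.48 and 0.48, with 6 above 0.1. Of 14 libraries 11 were closest to their own number, a hint from the data that some sharing may exist. Deviations within a time point are tied by their common mean, so these outcomes are not independent. With the replicate number as a block the calls remained 3, 6, 7 and 7 at 12, 24, 36 and 48 h and 3, 4 and 0 for the steps, the losses being Ccne2 at 48 h (adjusted p = 0.0635) and from 24 h to 36 h (0.0631) and Ccnd1 from 12 h to 24 h (0.0506).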

Other observations

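Genes that act on the cyclins and their kinases after transcription moved in both directions between 0 h and 48 h. Of 10 genes for the turnover of cyclins and inhibitors, all with a row, 6 were lower, 2 higher and 2 not called (limma, adjusted p below 0.05), beside 34.0% of all transcripts lower and 37.1% higher. Skp2, the F-box protein that marks p27 for degradation, fell from 2083, 1769 and 1618 at 0 h to 701, 804 and 905 at 48 h, a log2 change of −1.18 (adjusted p = 5.5e-07). Its partner Skp1a fell by 0.92 on the log2 scale (adjusted p = 2.2e-04) and Fbxo31, an F-box protein, by 0.80 (adjusted p = 4.5e-05). Fbxo4, another F-box protein, rose from 95, 89 and 76 to 270, 284 and 292 (log2 change 1.70, adjusted p = 8.2e-08).

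Of 8 activators of the kinases, all with a row, 4 were lower, 2 higher and 2 not called at 48 h, and the share called was near the 71.2% of all transcripts. The Cdc25 phosphatases, which remove inhibitory phosphates from the kinases, were all lower, with log2 changes of −1.33 for Cdc25b (adjusted p = 1.6e-05), −0.75 for Cdc25c (adjusted p = 0.0012) and −0.54 for Cdc25a (adjusted p = 1.8e-05), and the chaperone Hsp90ab1 fell by 0.65 (adjusted p = 0.0012). Mnat1 (0.58, adjusted p = 4.6e-04) and Ccnh (0.38, adjusted p = 3.8e-04), subunits of the kinase complex that activates the others, were higher, and their kinase Cdk7 had a change of −0.03 (adjusted p = 0.733). Of 5 listed subunits of the MuvB complex, which joins pocket proteins to repress genes in quiescence, 3 had a row. At 48 h Lin54 (0.65, adjusted p = 3.3e-06) and Lin52 (0.52, adjusted p = 9.0e-04) were higher and Rbbp4 (−1.04, adjusted p = 1.6e-06) was lower by limma, where 71.2% of all transcripts were called.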
